A study of Homo sapiens with 12 samples.

Results

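The aminoacyl-tRNA synthetases of MDA-MB-468 cells are described here, a receptor-negative breast carcinoma line of basal type. Members were the rows of the expression table whose gene name had the form of a synthetase symbol (a letter for the amino acid followed by ARS, with or without 1 or 2) or was FARSA, FARSB, FARS2, EPRS or EPRS1. The rule found 37 of the 59324 genes in the table, 20 for enzymes of the cytosol (no number or 1) and 17 for enzymes of the mitochondrion (ending in 2). The table uses older symbols, so the genes now called AARS1 or EPRS1 appear as AARS and EPRS. All 37 averaged 1 TPM or more across the libraries and so were among the 13937 genes tested. TPM is each transcript's length-corrected share of its library, so levels can be compared between genes on that scale.

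RNA sequencing covered 12 libraries in 4 groups of 3. Control cells received neither drug. SAHA (vorinostat), an inhibitor of zinc-dependent histone deacetylases, was given at 10 µM for 12 h, and sonidegib, an inhibitor of the Hedgehog signal transducer Smoothened, at 10 µM for 72 h. The combination group received both, with sonidegib described in the labels as a pretreatment. Cells of all groups belong to this cell line, and nothing in the labels ties the libraries of a group to separate cultures. The p-values therefore measure only how far these libraries spread, which may be technical. Fewer cells of a type and less RNA per cell cannot be told apart in such bulk samples.

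A synthetase joins an amino acid to its tRNA and so supplies the ribosome with building blocks. Cytosolic and mitochondrial ribosomes mostly use separate enzymes, all encoded in the nucleus, but the genes GARS and KARS each make both forms, and mitochondrial glutaminyl-tRNA is made by a detour through glutamyl-tRNA. When an amino acid runs short or protein folding fails, the transcription factor ATF4 induces many cytosolic synthetase genes through an element that C/EBP and ATF proteins bind.

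The core of that element was searched in the promoters because it is a feature that the naming rule did not use. RefSeq windows (GRCh38.p14, from 250 bases before to 50 after a start) were matched for 30 of the 37 genes. The letters TGATGNAA, on either strand, were found in 7 of 16 cytosolic genes with a window (AARS, CARS, GARS, IARS, MARS, NARS and TARS) and in 1 of 14 mitochondrial genes (YARS2), beside 4.46% of the 27305 genes with such windows. The E-box CACGTG was found in 1 of 16 and 3 of 14 (8.77% of all genes), and the motif of NRF1 in 3 of 16 and 3 of 14 (6.98%). No matches of different motifs shared bases in these windows. The matching stretches of the 6 cytosolic genes that were called in at least 1 comparison are shown, each 30 bases from 5′ to 3′ on the gene's own strand, with the element in capitals.
AARS (chr16:70289675-70289704, minus strand): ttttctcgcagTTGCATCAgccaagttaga
GARS (chr7:30594834-30594863, plus strand): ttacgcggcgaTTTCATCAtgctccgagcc
IARS (chr9:92293692-92293721, minus strand): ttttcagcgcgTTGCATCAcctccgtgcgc
MARS (chr12:57488053-57488082, plus strand): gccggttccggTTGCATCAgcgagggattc
TARS (chr5:33440956-33440985, plus strand): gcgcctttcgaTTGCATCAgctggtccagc
NARS (chr18:57621804-57621833, minus strand): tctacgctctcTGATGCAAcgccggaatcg
In 5 of the 6 genes the element read TTGCATCA or its reverse complement, and GARS had TTTCATCA. The element lay from 187 to 180 bases before the start in AARS, from 33 to 26 before it in GARS, and within 22 bases of it in the other 4. For GARS and TARS these positions are from the starts at 30594878 and 33440965. Each had a further RefSeq start, at 30594735 for GARS and 33440696 for TARS, whose window held no match. A match describes the letters and not a bound site.

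Each library had between 20125 and 21402 genes above 0, and depth is unknown because TPM keep no counts. The line's markers were present (EGFR 516 to 678 TPM, KRT5 446 to 617 TPM) and PGR and the erythroid gene HBB were at 0 in every library. Of the other receptor genes, ESR1 ran from 0.23 to 1.76 TPM and ERBB2 from 3.05 to 26.3 TPM. A set of 9 markers of other cell types summed to 7.59 to 9.14 TPM in control libraries. The range was 20.8 to 25.2 TPM after SAHA, 17.3 to 19.1 TPM after sonidegib and 18.9 to 20.5 TPM after both drugs. Most of it came from COL1A1 and CD68, PTPRC stayed at or below 0.01 TPM, and the part of these cells in the results was not tested. The 6 libraries without sonidegib listed all 17 genes for 5S ribosomal RNA at 0, and in the 6 with the drug their sum was 1488 to 12641 TPM. Mitochondrial ribosomal RNA was 0.565% to 0.67% of TPM in control and 1.18% to 1.35% with SAHA. It was 2.06% to 2.48% with sonidegib and 2.41% to 2.86% with both drugs. Mitochondrially encoded mRNA was 6.32% to 7.59% in control, 8.83% to 10.4% with SAHA, 6.49% to 7.47% with sonidegib and 7.82% to 9.66% with both. Differences in preparation or processing between libraries with and without sonidegib therefore cannot be told apart from the drug, and counts after removal of these RNAs are given beside each comparison of libraries with and without it.

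Cytosolic synthetase genes were expressed at higher levels than mitochondrial ones in control cells. KARS, for lysine, led at 366 ± 20.3 TPM (SD, n = 3), and FARSB, the beta subunit of the phenylalanine enzyme, was lowest of the cytosolic genes at 48.4 ± 1.38 TPM. YARS at 281 ± 7.09, MARS at 272 ± 11.1, GARS at 267 ± 10.6 and FARSA at 259 ± 8.31 TPM followed KARS, and neighbours in that order lay within their spread. Among mitochondrial genes CARS2, for cysteine, stood apart at 107 ± 2.82 TPM, above the cytosolic CARS at 53.5 ± 1.12 TPM. IARS2 came next at 48.7 ± 4.82 TPM, and the remaining 15 ran from RARS2 at 40.7 ± 2.42 TPM to LARS2 at 7.23 ± 0.855 TPM.

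The comparison of SAHA with control asked which synthetase genes responded to the deacetylase inhibitor. With SAHA 5 cytosolic genes rose and 11 fell of 20, where 31.8% of all tested genes rose and 26.9% fell (58.7% called). Calls rest on an adjusted p below 0.05 (limma, Benjamini-Hochberg adjustment), and changes are log2 differences of TPM + 1 with their SE. The median change of the cytosolic genes was -0.23, beside 0.05 over all genes. After median-of-ratios scaling 2 rose and 12 fell, as the calls of FARSA, QARS and WARS were lost there. The split was 6 and 11 after quantile normalization and 6 and 10 after removal of mitochondrially encoded genes and ribosomal RNA.

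DARS, which charges tRNA with aspartate, fell most among cytosolic genes. It stood at 51.1, 49.8 and 51.7 TPM in control and 18.3, 17.7 and 23.1 TPM with SAHA (-1.33 ± 0.092, adjusted p = 2.8e-07). The treated libraries were all below the lowest control library by a wide margin. LARS, for leucine, went from 80.1, 72.8 and 76.6 TPM to 40.3, 43.0 and 49.0 TPM (-0.78 ± 0.074, adjusted p = 3.26e-06). IARS, for isoleucine, went from 71.4, 69.3 and 69.1 TPM to 44.0, 38.4 and 47.8 TPM (-0.68 ± 0.072, adjusted p = 8.41e-06). VARS, for valine, went from 174, 175 and 156 TPM to 107, 121 and 111 TPM (-0.58 ± 0.064, adjusted p = 1.16e-05). None of these genes' groups overlapped. The other falls were TARS (-0.52), NARS (-0.46), GARS (-0.38), AARS (-0.30), KARS (-0.30), EPRS (-0.29) and YARS (-0.16). The call of YARS was lost without control replicate 2 (-0.14) or SAHA replicate 1 (-0.12).

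HARS, the cytosolic enzyme for histidine, had the largest called rise of this compartment. It was at 95.4, 93.9 and 89.1 TPM in control and 129, 137 and 135 TPM with SAHA (0.52 ± 0.054, adjusted p = 7.11e-06). RARS, for arginine, went from 175, 159 and 169 TPM to 219, 194 and 230 TPM (0.35 ± 0.074, adjusted p = 0.00175). The groups did not overlap for either gene. WARS, for tryptophan and known as an interferon-inducible gene, was at 162, 160 and 158 TPM in control and 176, 176 and 209 TPM with SAHA (0.22 ± 0.071, adjusted p = 0.0194). The third SAHA library was highest, and the call of WARS was lost without it (0.14) or without control replicate 3 (0.21). FARSA (0.20 ± 0.051) and QARS (0.19 ± 0.046), for glutamine, also rose.

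Of the 17 mitochondrial genes 3 rose and 7 fell with SAHA, with a median of -0.20. The share called was 58.8%, beside 58.7% of all tested genes. The split was 3 and 10 after median-of-ratios scaling and after quantile normalization. After removal of mitochondrially encoded genes and ribosomal RNA it was 3 and 6, as the call of YARS2 was lost (-0.27). SARS2, the mitochondrial enzyme for serine, had the largest change of any synthetase. Its level was 25.6, 22.6 and 23.8 TPM in control and 5.11, 7.24 and 4.29 TPM with SAHA (-1.96 ± 0.15, adjusted p = 4.78e-07). Every treated library lay far below the lowest control library. WARS2 went from 8.76, 7.72 and 8.87 TPM to 3.21, 2.70 and 3.53 TPM (-1.19 ± 0.12, adjusted p = 4.79e-06), in the opposite direction to the cytosolic WARS. EARS2, for glutamate, went from 11.3, 13.0 and 12.2 TPM to 6.64, 8.07 and 6.28 TPM (-0.72 ± 0.1, adjusted p = 7.64e-05). The groups of these genes did not overlap. LARS2 (-0.59), YARS2 (-0.32) and FARS2 (-0.30) also fell, and the call of YARS2 was lost without control replicate 1 (-0.25) or 2 (-0.29) and without SAHA replicate 1 (-0.27) or 2 (-0.32).

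CARS2 rose from 104, 108 and 109 TPM to 156, 165 and 146 TPM with SAHA (0.53 ± 0.052, adjusted p = 4.12e-06). All treated libraries were above all control libraries. MARS2, for methionine, rose from 6.83, 7.87 and 8.17 TPM to 10.4, 9.53 and 10.3 TPM (0.36 ± 0.1, adjusted p = 0.00889), and RARS2 rose by 0.27 ± 0.078. The plot of log2 changes of 36 genes against control shows these rises and falls side by side.

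**Figure D1:**
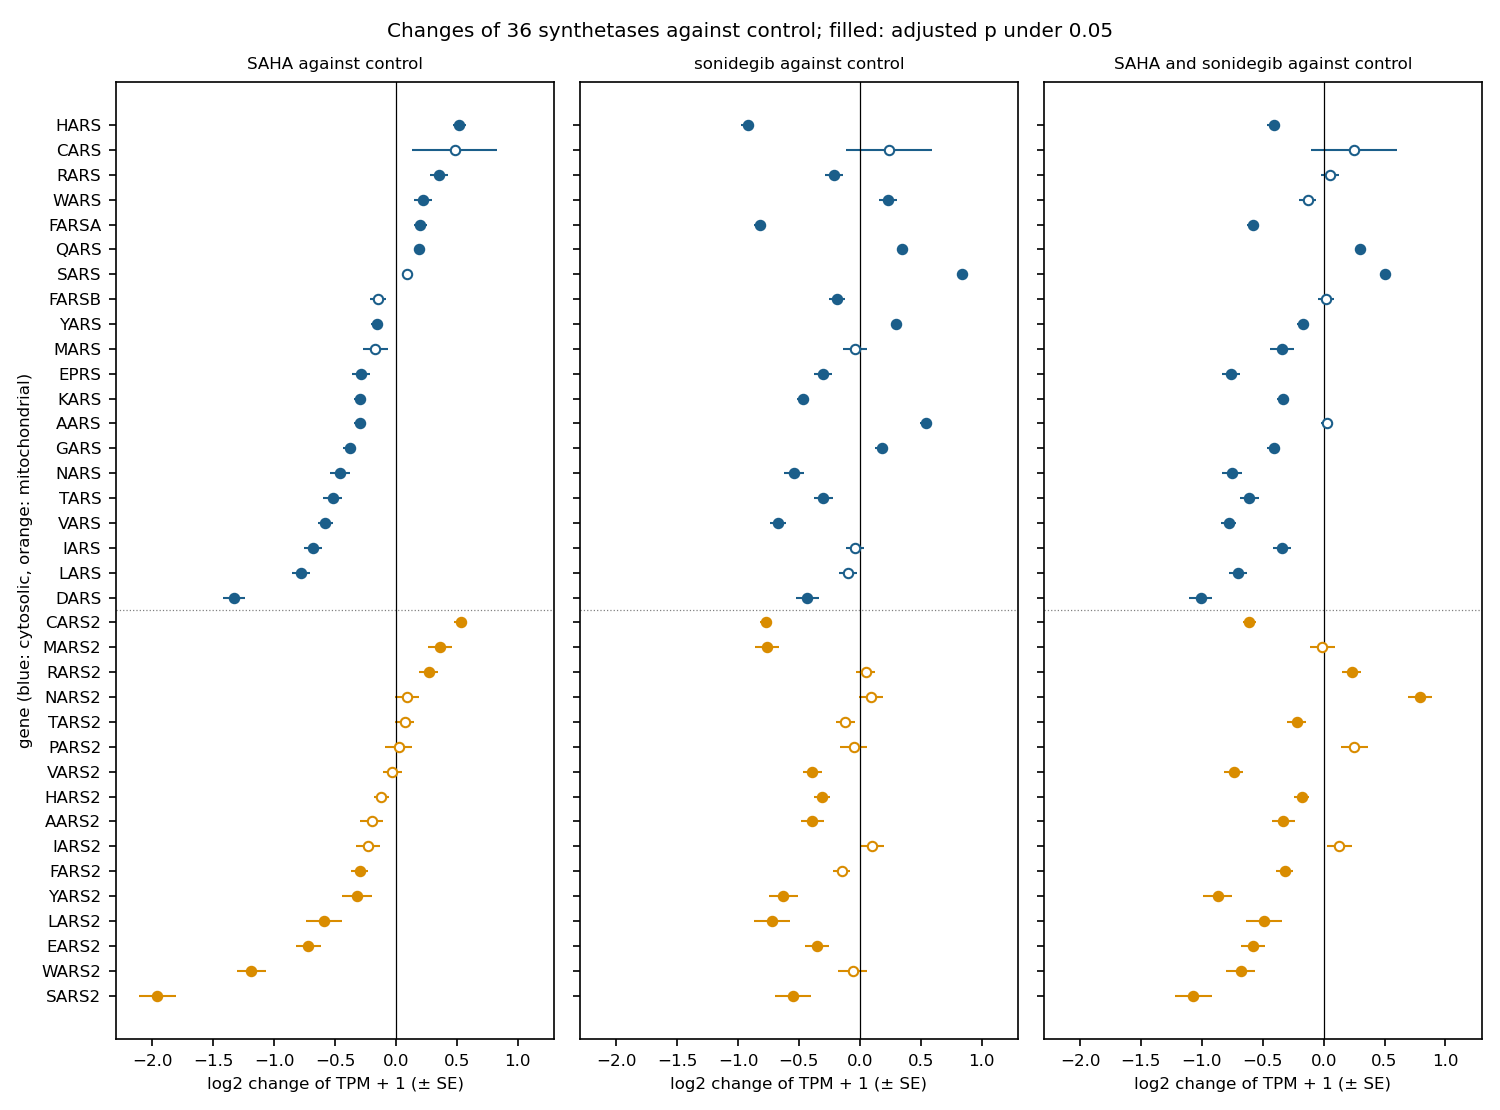
Log2 change of TPM + 1 (horizontal axis, bars ± SE) of 36 synthetase genes against control for SAHA, sonidegib and both drugs, with cytosolic genes in blue above the dotted line and mitochondrial genes in orange below it. Filled points have an adjusted p under 0.05. SARS2 is lowest with SAHA at -1.96, and HARS changes from 0.52 with SAHA to -0.92 with sonidegib.

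The comparison of sonidegib with control asked how the genes responded to the Smoothened inhibitor. With sonidegib 6 cytosolic genes rose and 10 fell of 20 (median -0.14), whereas 0 mitochondrial genes rose and 10 fell of 17 (median -0.35). Of all tested genes 26.1% rose and 29.2% fell (55.3% called), with a median of -0.02. After quantile normalization 6 cytosolic genes rose and 6 fell, and after removal of mitochondrially encoded genes and ribosomal RNA 6 rose and 8 fell. The mitochondrial split was 0 and 10 after that removal and 1 and 10 after quantile normalization. Whether the compartments differ in their response was not tested as a set.

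SARS, the cytosolic enzyme for serine, rose most. It was at 251, 248 and 244 TPM in control and 453, 451 and 431 TPM with sonidegib (0.84 ± 0.038, adjusted p = 2.38e-08). AARS, for alanine, went from 128, 120 and 122 TPM to 182, 179.6 and 177 TPM (0.54 ± 0.048, adjusted p = 2.71e-06). Neither gene showed overlap between the groups. QARS went from 250.5, 234 and 245 TPM to 317, 301 and 311 TPM (0.35 ± 0.046, adjusted p = 6.25e-05). YARS, for tyrosine, went from 282, 288 and 274 TPM to 348, 343 and 344 TPM (0.30 ± 0.048, adjusted p = 0.000292). WARS (0.23 ± 0.071) and GARS (0.18 ± 0.052) were the remaining rises, and the call of WARS was lost without sonidegib replicate 3 (0.20).

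HARS fell most with sonidegib, from 95.4, 93.9 and 89.1 TPM to 51.0, 48.9 and 46.4 TPM (-0.92 ± 0.054, adjusted p = 1.33e-07). FARSA, the catalytic subunit for phenylalanine, fell from 258, 267.5 and 251 TPM to 152, 143 and 143 TPM (-0.82 ± 0.051, adjusted p = 1.92e-07). Both genes, higher with SAHA, were thus below every control library with sonidegib. VARS fell from 174, 175 and 156 TPM to 103, 109.96 and 102 TPM (-0.67 ± 0.064, adjusted p = 4.6e-06). NARS, for asparagine, fell from 112, 101 and 108 TPM to 70.0, 73.2 and 76.8 TPM (-0.54 ± 0.082, adjusted p = 0.00019). KARS (-0.47), DARS (-0.43), EPRS (-0.30), TARS (-0.30), RARS (-0.21) and FARSB (-0.19) also fell. After quantile normalization the calls of EPRS, TARS and FARSB were lost and RARS stood at 0.01. Removal of mitochondrially encoded genes and ribosomal RNA also took the calls of RARS (-0.18) and FARSB (-0.16). Median-of-ratios scaling took that of FARSB (-0.17). The call of FARSB was also lost without control replicate 1 (-0.18) or 2 (-0.17) and without sonidegib replicate 1 (-0.19) or 3 (-0.15). That of RARS was lost without control replicate 1 (-0.17) or 3 (-0.20) and without sonidegib replicate 1 (-0.17) or 3 (-0.22).

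Among the mitochondrial falls with sonidegib, CARS2 went from 104, 108 and 109 TPM to 63.5, 61.2 and 63.1 TPM (-0.77 ± 0.052, adjusted p = 3.44e-07). The groups were far apart relative to their spread. MARS2 went from 6.83, 7.87 and 8.17 TPM to 3.90, 3.62 and 4.83 TPM (-0.76 ± 0.1, adjusted p = 6.78e-05). LARS2 went from 6.55, 8.19 and 6.95 TPM to 3.78, 3.90 and 4.29 TPM (-0.72 ± 0.15, adjusted p = 0.0017). These are low levels, at which the added 1 makes a change appear smaller. Falls were also called for YARS2 (-0.63), SARS2 (-0.55), VARS2 (-0.39), AARS2 (-0.39), EARS2 (-0.35) and HARS2 (-0.31). The genes that were not called lay between -0.15 for FARS2 and 0.10 for IARS2.

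Summed over the compartment, mitochondrial synthetase mRNA was lower in both groups with sonidegib than in control, and lower than with SAHA alone only when CARS2 was counted. The sum of the 17 genes was 446, 449.9 and 469 TPM in control, 449.6, 454.5 and 453 TPM with SAHA, 363, 353 and 359 TPM with sonidegib and 358, 368 and 386.5 TPM with both drugs. All 6 libraries with sonidegib were below all 6 without it, a split that rests on CARS2. Without CARS2 the sum was 341 to 359.8 TPM in control, and the ranges of the treated groups overlapped, at 289.9 to 307 TPM with SAHA, 292 to 299.4 TPM with sonidegib and 289 to 314 TPM with both. The sum of the 20 cytosolic genes was 3508, 3420.5 and 3346 TPM in control, 3055, 3153 and 3301 TPM with SAHA, 3389, 3446 and 3361 TPM with sonidegib and 2877, 2886 and 3052 TPM with both. Control cells had a cytosolic to mitochondrial ratio of 7.53 ± 0.365, which compares with 7.01 ± 0.247 for SAHA, 9.48 ± 0.231 for sonidegib and 7.93 ± 0.0929 for both. Leaving out CARS2 changed the order of the groups, with ratios of 9.30 to 10.2 in control, 10.4 to 10.9 with SAHA, 11.3 to 11.8 with sonidegib and 9.65 to 9.94 with both drugs. These sums over the members carry no test.

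**Figure D2:**
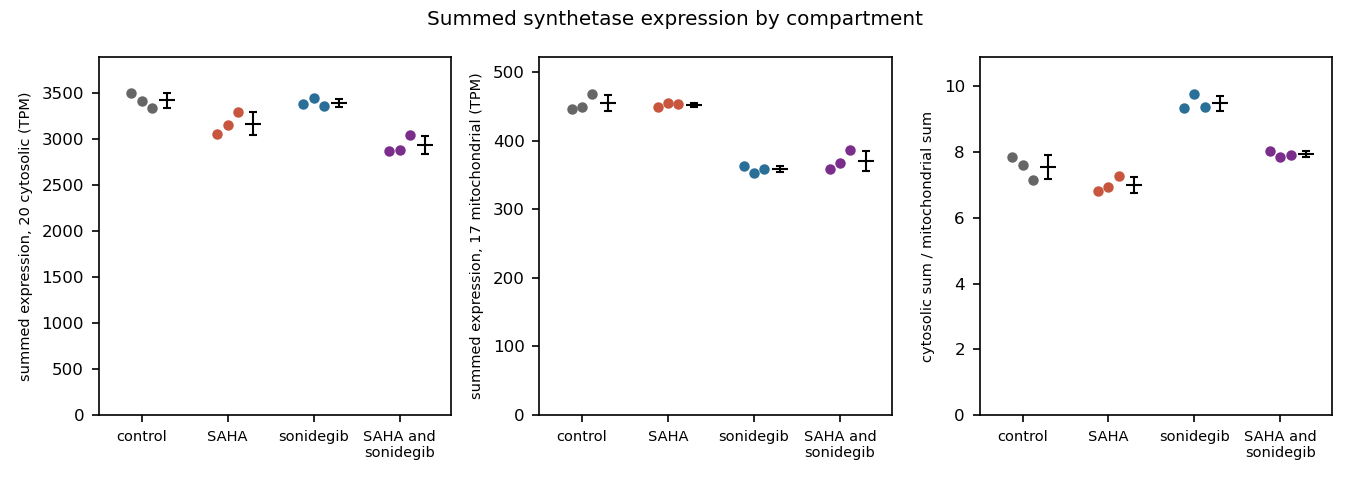
Summed TPM of the 20 cytosolic genes, of the 17 mitochondrial genes, and their ratio, for each library (points, 3 per group) with mean and SD (bars); all vertical axes start at 0. The mitochondrial sum lies between 353 and 386.5 TPM in the 6 libraries with sonidegib and between 446 and 469 TPM in the 6 without it, and without CARS2 these ranges overlap.

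Several genes changed in opposite directions with the single drugs, which share the control libraries. AARS, GARS and YARS fell with SAHA and rose with sonidegib. AARS stood at -0.30 and 0.54, GARS at -0.38 and 0.18, and YARS at -0.16 and 0.30. HARS, FARSA, RARS, CARS2 and MARS2 rose with SAHA and fell with sonidegib. HARS stood at 0.52 and -0.92, FARSA at 0.20 and -0.82, RARS at 0.35 and -0.21, CARS2 at 0.53 and -0.77, and MARS2 at 0.36 and -0.76. The opposition of HARS, CARS2, MARS2, AARS and GARS was kept in calls and sign under all 3 other scalings. RARS with sonidegib stood at 0.01 after quantile normalization, and the call of FARSA with SAHA was lost after median-of-ratios scaling (0.11). The call of YARS with SAHA was lost after quantile normalization (-0.11) and after removal of mitochondrially encoded genes and ribosomal RNA (-0.10).

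**Figure D3:**
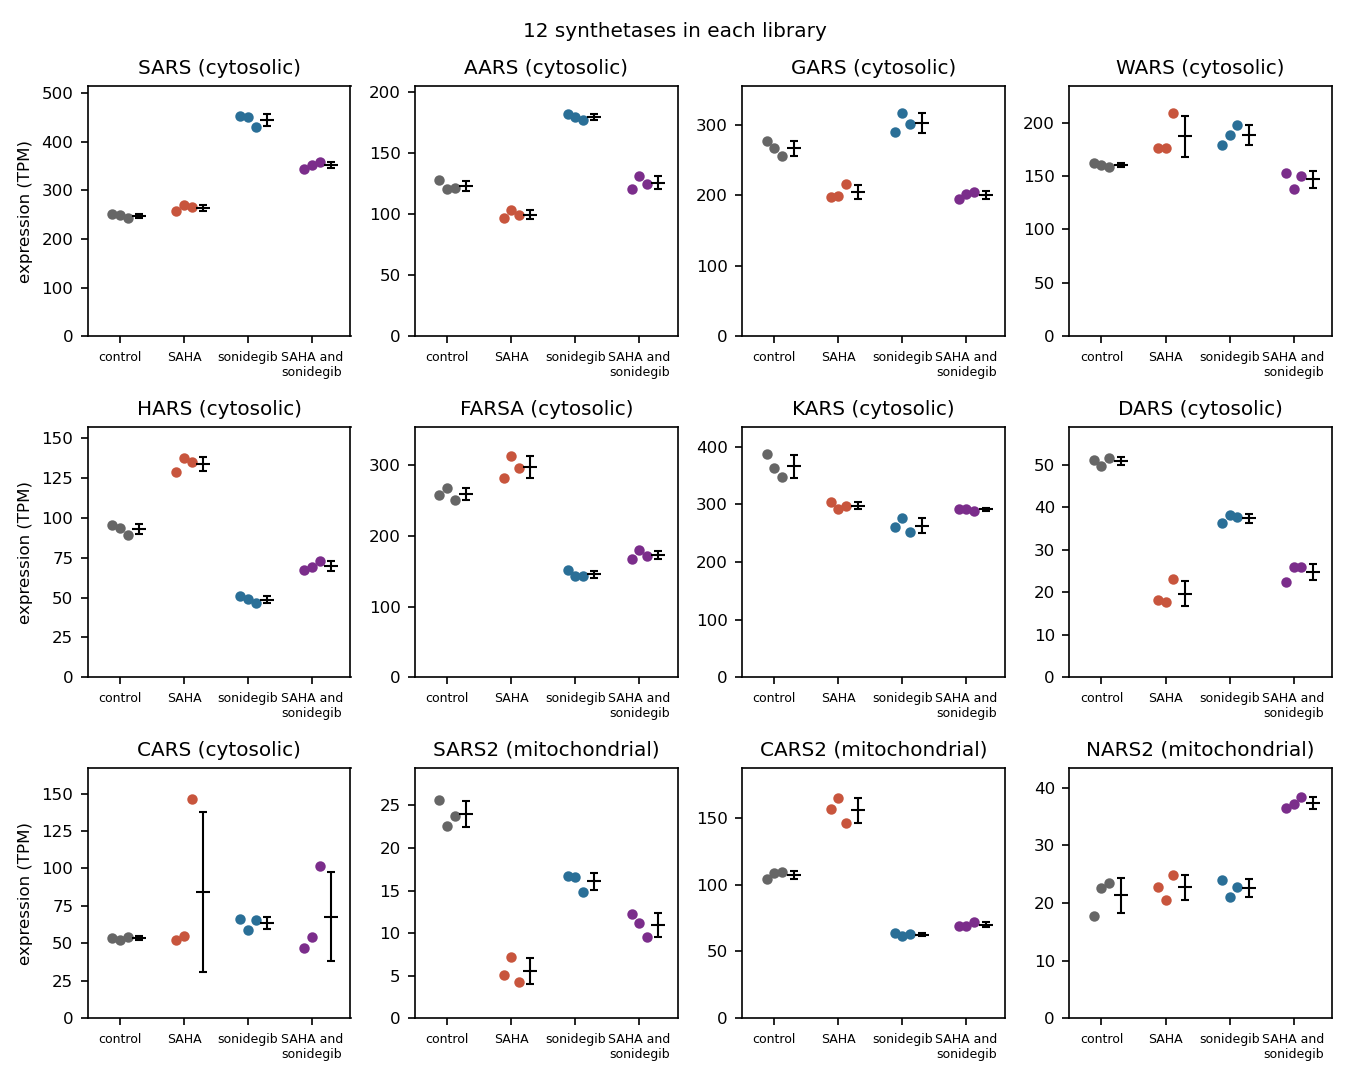
Expression in TPM (vertical axes from 0) of 12 synthetase genes in each library, with the 3 libraries of a group as points and mean and SD as a bar. SARS is highest with sonidegib (431 to 453 TPM), SARS2 is lowest with SAHA (4.29 to 7.24 TPM), and CARS has 1 high library in each group with SAHA (146 and 102 TPM).

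With both drugs most synthetase genes were below control. In the combination 2 cytosolic genes rose and 13 fell (median -0.34), and 2 mitochondrial genes rose and 12 fell (median -0.33), where 29.7% of all tested genes rose and 34% fell (63.7% called). The split of cytosolic genes was 5 and 9 after quantile normalization, and that of mitochondrial genes 4 and 11 after median-of-ratios scaling. After removal of mitochondrially encoded genes and ribosomal RNA the splits were 2 and 12, and 3 and 10. Of the cytosolic genes SARS (345, 353 and 358 TPM, 0.50 ± 0.038) and QARS (302, 299.9 and 295 TPM, 0.30 ± 0.046) rose. DARS (22.6, 26.0 and 25.9 TPM, -1.01 ± 0.092), VARS (101, 98.8 and 93.5 TPM, -0.78 ± 0.064), EPRS (75.0, 77.1 and 80.6 TPM, -0.76 ± 0.074) and NARS (62.0, 59.2 and 69.6 TPM, -0.75 ± 0.082) fell most. Each of these 6 genes was outside the range of the control libraries in all 3 combination libraries. EPRS makes the fused enzyme for glutamate and proline. The remaining falls ranged from -0.70 for LARS to -0.17 for YARS, which was not called after median-of-ratios scaling (-0.12) and was called higher after quantile normalization (0.12).

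NARS2, the mitochondrial asparagine enzyme, differed from this trend. It was at 17.8, 22.6 and 23.5 TPM in control, 22.7, 20.6 and 24.9 TPM with SAHA and 24.0, 21.0 and 22.7 TPM with sonidegib. With both drugs it was at 36.5, 37.1 and 38.4 TPM (0.79 ± 0.1 against control, adjusted p = 3.74e-05). All 3 combination libraries were above all 9 others. RARS2 also rose (0.23 ± 0.078), a call lost without control replicate 2 (0.18) or combination replicate 3 (0.17). SARS2 (12.2, 11.2 and 9.50 TPM, -1.07 ± 0.15), YARS2 (6.34, 6.61 and 8.27 TPM, -0.87 ± 0.12) and VARS2 (24.2, 21.0 and 20.3 TPM, -0.74 ± 0.079) were among the falls. VARS2 in the combination was below its level in every library with either drug alone.

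The response to SAHA was also measured in cells that had received sonidegib, between libraries that both contained 5S ribosomal RNA. Against sonidegib alone 5 cytosolic genes rose and 11 fell in the combination (median -0.30), and 4 mitochondrial genes rose and 4 fell (median 0.03). Of all tested genes 17.5% rose and 21% fell (38.5% called). LARS (71.0, 73.7 and 69.5 TPM to 45.5, 45.2 and 49.9 TPM, -0.60 ± 0.074), GARS (290, 317 and 301 TPM to 194, 202 and 205 TPM, -0.59 ± 0.052), DARS (-0.58 ± 0.092) and AARS (-0.51 ± 0.048) had the largest cytosolic falls. HARS (0.51 ± 0.054), RARS (0.25 ± 0.074), FARSA (0.24 ± 0.051), FARSB (0.20 ± 0.066) and KARS (0.15 ± 0.049) rose. HARS went from 51.0, 48.9 and 46.4 TPM to 67.2, 69.1 and 72.9 TPM, and AARS from 182, 179.6 and 177 TPM to 121, 131 and 125 TPM. Neither gene's groups overlapped. The call of KARS was lost on leaving out any library but sonidegib replicate 2 (0.12 to 0.15), and that of FARSB on leaving out replicate 1 or 3 of either group (0.16 to 0.20). RARS lost its call without sonidegib replicate 1 (0.22) or combination replicate 3 (0.20).

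Among mitochondrial genes MARS2 rose from 3.90, 3.62 and 4.83 TPM with sonidegib to 7.49, 7.42 and 7.67 TPM with both drugs (0.74 ± 0.1, adjusted p = 0.000169). NARS2 rose by 0.70 ± 0.1 (adjusted p = 0.000285), PARS2, for proline, by 0.30 ± 0.11 and CARS2 by 0.16 ± 0.052. The levels of MARS2 with both drugs were back within the range of the control libraries. WARS2 (-0.62 ± 0.12), SARS2 (-0.52 ± 0.15) and VARS2 (-0.35 ± 0.079) fell. Without sonidegib replicate 1 the mitochondrial count dropped from 8 to 5, as the calls of CARS2 (0.17), PARS2 (0.26) and SARS2 (-0.49) were lost. SARS2 lost its call also without combination replicate 3 (-0.43), CARS2 on leaving out any library but combination replicate 1, and PARS2 on leaving out any but sonidegib replicate 3.

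The response to sonidegib was likewise measured in cells given SAHA. Against SAHA alone 4 cytosolic genes rose and 7 fell (median -0.06) and 4 mitochondrial genes rose and 6 fell (median -0.04), beside 18% of all tested genes higher and 33% lower (50.9% called). The median over all tested genes was -0.12 and moved to 0.00 under median-of-ratios scaling and under quantile normalization. The cytosolic split then became 7 and 5 under the former and 10 and 3 under the latter, and the mitochondrial split 5 and 5 under both. After removal of mitochondrially encoded genes and ribosomal RNA the splits were 5 and 7, and 4 and 6. CARS2 fell most, from 156, 165 and 146 TPM to 69.0, 68.7 and 72.1 TPM (-1.14 ± 0.052, adjusted p = 3.92e-08). Other genes that fell include HARS (-0.93 ± 0.054), FARSA (-0.78 ± 0.051), VARS2 (-0.71 ± 0.079), YARS2 (-0.56 ± 0.12), EPRS (-0.46 ± 0.074), MARS2 (-0.38 ± 0.1) and WARS (-0.35 ± 0.071). SARS2 rose from 5.11, 7.24 and 4.29 TPM to 12.2, 11.2 and 9.50 TPM (0.89 ± 0.15, adjusted p = 0.000356). NARS2 (0.70 ± 0.1), WARS2 (0.51 ± 0.12), SARS (0.41 ± 0.038), IARS2 (0.37 ± 0.1), IARS (0.34 ± 0.072), AARS (0.33 ± 0.048) and DARS (0.32 ± 0.092) also rose. The groups of DARS overlapped, and its call was lost without SAHA replicate 1 (0.28) or 2 (0.26), and that of IARS2 without SAHA replicate 2 (0.27) or combination replicate 3 (0.28). WARS was not called after quantile normalization (-0.13).

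The interaction asks whether the SAHA response differed between cells with and without sonidegib. It is the change by SAHA in sonidegib-treated cells minus that in cells without sonidegib. It was called for 11 of 20 cytosolic genes, 5 higher and 6 lower, and for 7 of 17 mitochondrial genes, 6 higher and 1 lower. Of all tested genes 11.8% were higher and 19.7% lower (31.4% called), with a median of -0.07 that moved to 0.03 under median-of-ratios and quantile scaling. The cytosolic split was also 5 and 6 after quantile normalization and after removal of mitochondrially encoded genes and ribosomal RNA. It was 8 and 2 after median-of-ratios scaling. The mitochondrial split was 10 and 0 after that scaling, 10 and 1 after quantile normalization and 6 and 2 after removal of mitochondrially encoded genes and ribosomal RNA.

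Positive interactions belonged to genes whose change by SAHA was higher in the presence of sonidegib. SARS2 changed by -1.96 without sonidegib and by -0.52 with it (interaction 1.44 ± 0.21, adjusted p = 0.000343). LARS2 changed by -0.59 without sonidegib (interaction 0.82 ± 0.21, adjusted p = 0.0124) and stood at 0.23 with it, which was not called. Its 3 combination libraries spread from 3.78 to 6.53 TPM. DARS changed by -1.33 and -0.58 (interaction 0.76 ± 0.13, adjusted p = 0.0012). The single-drug libraries of DARS placed SAHA lowest, at 17.7 to 23.1 TPM, and sonidegib at 36.2 to 38.3 TPM. NARS2 stood at 0.09 without sonidegib, not called, and rose by 0.70 with it (interaction 0.61 ± 0.14, adjusted p = 0.00819). KARS changed by -0.30 and 0.15 (interaction 0.45 ± 0.07, adjusted p = 0.000657). Its libraries were at 292 to 304 TPM with SAHA and 289 to 293 TPM with both drugs. Those with sonidegib alone lay below them, at 252 to 277 TPM.

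WARS and SARS lay on the other side. WARS changed by 0.22 without sonidegib and by -0.36 with it (interaction -0.58 ± 0.1, adjusted p = 0.00125). It was at 153, 138 and 149.7 TPM with both drugs, below all 9 other libraries. SARS stood at 0.09 without sonidegib, not called, and fell by 0.34 with it (interaction -0.43 ± 0.054, adjusted p = 0.000147). For HARS the interaction was -0.01 ± 0.076 (adjusted p = 0.92), so that the SAHA response had nearly the same value, 0.52 and 0.51, in both settings.

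Across the 37 genes the SAHA response without and with sonidegib, which share no library, correlated with Pearson r = 0.628, beside 0.546 over all 13937 tested genes. It was 0.639 over the 20 cytosolic and 0.708 over the 17 mitochondrial genes. The sign was the same for 27 of 37 genes, and the share over all tested genes was not counted. The sonidegib response without and with SAHA, also from separate libraries, correlated with r = 0.512, beside 0.543 over all tested genes. Its sign was the same for 23 of 37 genes. Genes are not independent replicates, so these values describe the pattern only.

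**Figure D4:**
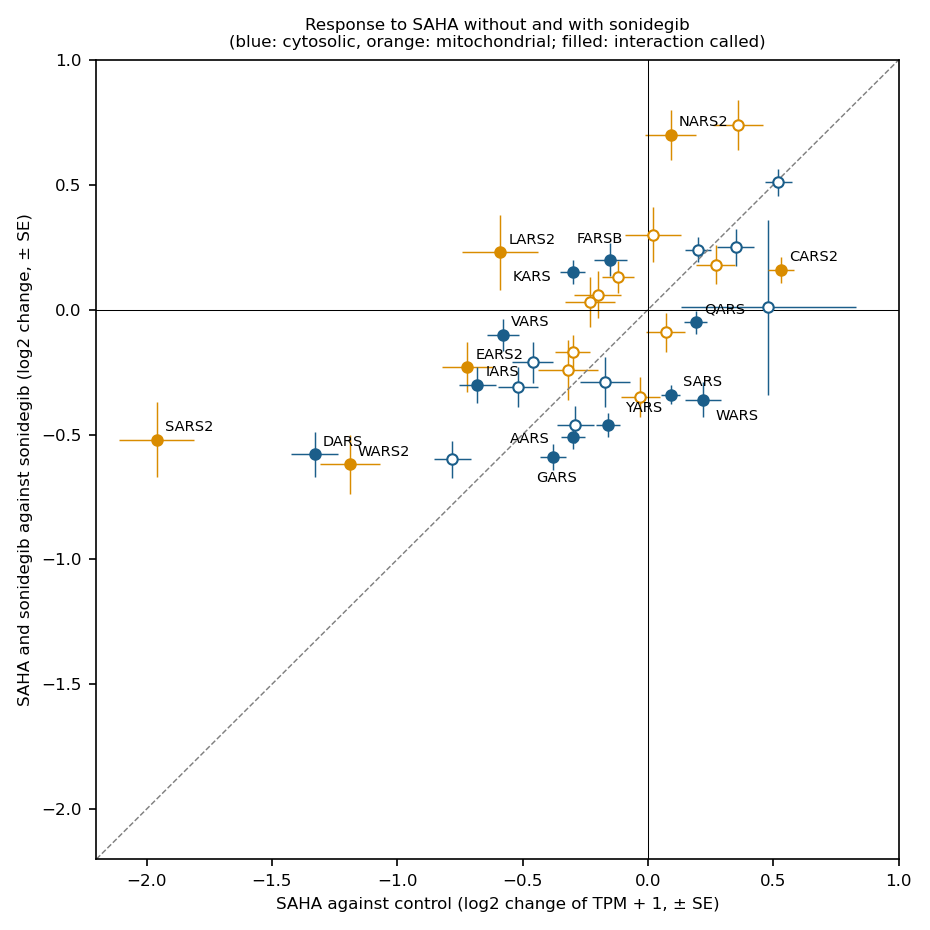
Log2 change by SAHA in cells without sonidegib (horizontal axis) and with it (vertical axis), bars ± SE, for 36 genes, with cytosolic genes in blue and mitochondrial genes in orange. Filled and named points have an interaction with an adjusted p under 0.05, and the dashed line marks equal responses. SARS2 (-1.96 and -0.52) and DARS (-1.33 and -0.58) lie above the line, and WARS (0.22 and -0.36) below it.

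Cytosolic genes known as targets of the amino acid response, listed from general knowledge with earlier results of these data in view, were set beside the others. The list holds AARS, CARS, EPRS, GARS, IARS, LARS, MARS, NARS, SARS, TARS, VARS, WARS and YARS. Of these 13 genes 1 rose and 9 fell with SAHA, where 31.8% of all tested genes rose and 26.9% fell. With sonidegib 5 rose and 4 fell (26.1% and 29.2% of all tested genes), and in the combination against sonidegib 0 rose and 10 fell (17.5% and 21%). Of the 7 others 4 rose and 2 fell with SAHA, 1 rose and 6 fell with sonidegib, and 5 rose and 1 fell in the combination against sonidegib. The cytosolic genes were also divided by the promoter element described above, AARS, CARS, GARS, IARS, MARS, NARS and TARS being the carriers. With SAHA 0 of the 7 carriers rose and 5 fell (median -0.38), and of the 9 genes with a window but no element 5 rose and 2 fell (median 0.19). In the combination against sonidegib carriers gave 0 and 5 and non-carriers 5 and 3. With sonidegib alone the numbers were 2 and 2 for carriers and 3 and 6 for the rest. These small groups were not tested against each other. DARS, LARS, VARS and YARS had no window and are in neither group, so whether they carry the element is unknown. They all fell with SAHA (-1.33, -0.78, -0.58 and -0.16). In the combination against sonidegib DARS, LARS and YARS fell (-0.58, -0.60 and -0.46) and VARS was not called (-0.10). The numbers for non-carriers therefore depend on which genes had a window.

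Other genes of the amino acid response moved in part with them. Of 16 listed genes 2 rose and 10 fell with SAHA, 13 rose and 2 fell with sonidegib, 9 rose and 5 fell with both drugs, and 3 rose and 8 fell in the combination against sonidegib. Over all tested genes the shares that rose and fell were 31.8% and 26.9% with SAHA and 26.1% and 29.2% with sonidegib. They were 29.7% and 34% with both drugs and 17.5% and 21% in the combination against sonidegib. ATF4, the factor itself, went from 765 ± 17.6 TPM in control to 593 ± 12.4 TPM with SAHA (-0.37 ± 0.04) and 944 ± 23.9 TPM with sonidegib (0.30 ± 0.04). ASNS, the asparagine synthetase that is its standard target, changed by -0.34 ± 0.083 and 0.44 ± 0.083. TRIB3, a feedback inhibitor of the pathway, fell by 2.01 with SAHA and rose by 0.44 with sonidegib. DDIT3, a stress factor known as CHOP, rose by 2.91 with sonidegib and was not called with SAHA (-0.12). The 2 listed genes that rose with SAHA were PPP1R15A (0.73) and VLDLR (0.40). In the combination against sonidegib the 3 rises were CHAC1 (0.73), DDIT3 (0.59) and SESN2 (0.29). ATF5, a related factor, fell with both single drugs (-2.50 ± 0.16 and -3.16 ± 0.16), against the majority of the list with sonidegib. MYC, a growth-promoting factor, fell by 1.28 with SAHA and by 0.32 with sonidegib.

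Members of the multisynthetase complex, which joins 8 of the cytosolic genes' products, gave 2 rises and 5 falls with SAHA and 1 rise and 4 falls with sonidegib. The 12 outside it gave 3 and 6, and 5 and 6. Of all tested genes 31.8% rose and 26.9% fell with SAHA, and 26.1% rose and 29.2% fell with sonidegib. Members inside and outside the complex were not tested against each other or against these shares. The 3 scaffold genes of the complex fell with each single drug and with both. AIMP2 went from 165 ± 5.24 TPM in control to 115 ± 3.38 TPM with SAHA, 79 ± 3.1 TPM with sonidegib and 57.9 ± 1.94 TPM with both (-1.49 ± 0.049, adjusted p = 7.49e-10). AIMP1 changed by -0.97 ± 0.18 with SAHA and -0.52 ± 0.18 with sonidegib, and EEF1E1 by -0.85 ± 0.13 and -0.50 ± 0.13. XPOT, the exporter of tRNA from the nucleus, fell from 38.8 ± 3.94 to 17 ± 1.41 TPM with SAHA (-1.14 ± 0.089) and stood at 38.4 ± 1.73 TPM with sonidegib.

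The related lists of the mitochondrion and the ribosome moved in mixed directions. Beside them, 31.8% of all tested genes rose and 26.9% fell with SAHA, and 26.1% rose and 29.2% fell with sonidegib. The short lists that follow were not tested against these shares. Of 6 mitochondrial translation factors 2 rose and 1 fell with SAHA, where GFM2, a ribosome recycling factor, rose by 0.88 and the initiation factor MTIF2 fell by 0.80, and 1 rose and 3 fell with sonidegib. Of 4 partners in mitochondrial tRNA charging 0 rose and 2 fell with SAHA, among them QRSL1, a subunit of the amidotransferase that makes glutaminyl-tRNA, and 1 rose and 1 fell with sonidegib. QRSL1 changed by -0.50 ± 0.095 and 0.59 ± 0.095. Of 4 tested genes of elongation factor 1, which carries charged tRNA to the ribosome, 0 rose and 2 fell with SAHA and 3 rose and 1 fell with sonidegib. EEF1A1 changed by -0.35 ± 0.043 and 0.49 ± 0.043. Of the 4 kinases that phosphorylate eIF2 alpha 2 rose and 0 fell with each drug, and EIF2AK3 (PERK) rose by 0.73 and 1.05. Of 6 genes of tRNA export and proofreading 1 rose and 4 fell with SAHA, and 1 rose and 3 fell with sonidegib. Of 3 tested interferon response genes linked to WARS 3 rose and 0 fell with SAHA, and 1 rose and 0 fell with sonidegib. Of 3 tested relatives of synthetases outside the rule 0 rose and 2 fell with each drug.

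For some amino acids the ratio of the cytosolic to the mitochondrial gene's TPM differed between groups without overlap. The ratio of SARS to SARS2, the serine enzymes, was 9.80 to 11 in control, 37.3 to 62.0 with SAHA, 27.0 to 28.9 with sonidegib and 28.2 to 37.7 with both drugs. All 9 treated libraries were above the control range. The ratio of WARS to WARS2 was 17.8 to 20.7 in control and 54.9 to 65.1 with SAHA. The ratio of NARS to NARS2 went the other way, from 4.47 to 6.30 in control to 1.60 to 1.81 with both drugs. For alanine, AARS to AARS2 was 14.9 to 15.3 in control and 27.5 to 31.6 with sonidegib.

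HARS and HARS2, whose RefSeq starts are divergent and 84 bases apart, are given side by side. With SAHA HARS rose by 0.52 while HARS2 was at 32.7, 29.97 and 33.5 TPM in control and 29.9, 29.4 and 29.2 TPM with SAHA (-0.12 ± 0.063, adjusted p = 0.138). HARS2 was called lower after median-of-ratios scaling (-0.20) and after quantile normalization (-0.18). With sonidegib both fell, HARS by 0.92 and HARS2 by 0.31. SARS2 similarly has a divergent neighbour, MRPS12, for a protein of the mitochondrial ribosome, with 180 bases between the starts. MRPS12 was at 146, 156 and 146 TPM in control and 144, 158 and 143 TPM with SAHA (-0.01 ± 0.057, adjusted p = 0.865), overlapping ranges, while SARS2 fell. With sonidegib MRPS12 fell by 1 on the log2 scale.

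GARS (chr7:30594681-30634033) and KARS (chr16:75627474-75648643, GRCh38), each the source of both the cytosolic and the mitochondrial enzyme, were counted as cytosolic by their names. GARS stood at 277, 268 and 256 TPM in control, 198, 199.6 and 216 TPM with SAHA, 289.8, 317 and 301 TPM with sonidegib and 194, 202 and 205 TPM with both. KARS stood at 388, 363 and 348 TPM in control and was lower in every treated library, at 252 to 304 TPM. TPM per gene do not separate the 2 products.

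CARS was not called in any comparison of the model with all 4 groups, which share 1 estimate of the spread. It was at 53.6, 52.3 and 54.6 TPM in control, 52.1, 55.0 and 146 TPM with SAHA, 66.5, 58.8 and 65.6 TPM with sonidegib and 47.1, 54.4 and 102 TPM with both drugs. The third library of each group with SAHA was high and the other two were near control. The change with SAHA was 0.48 ± 0.35 (adjusted p = 0.27). All sonidegib libraries were above all control libraries, and in a fit of those groups alone, which leaves out the high SAHA libraries, CARS was called higher with sonidegib (0.24, adjusted p = 0.0133 against 0.588 in the model with all groups). Without SAHA replicate 3 the adjusted p was 1.0 and the change was 0. Of the 13937 tested genes 55 had replicate 3 at least 1.5-fold above both other replicates in each of the groups with SAHA, and CARS was the only member among them.

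Reads could be shared where synthetase genes overlap other genes on the opposite strand, since strandedness is not stated. MARS overlaps DDIT3, which went from 6.48 ± 2.15 TPM in control to 53.8 ± 4.58 TPM with sonidegib and 82.1 ± 11.5 TPM with both drugs, while MARS itself stood at -0.04 ± 0.1 with sonidegib (adjusted p = 0.738). Other overlapping partners on the opposite strand include HARS2 for HARS, MRPS12 for SARS2, ING1 for CARS2, TERF2IP for KARS and the antisense gene DARS-AS1 for DARS. DARS-AS1 averaged 1.75 TPM over the libraries, against 33.2 TPM for DARS. Overlaps on the same strand, which stranded reads would not separate either, include ZMAT2 for HARS2 and GTF2H4 for VARS2. ZMAT2 averaged 111 TPM against 28.8 TPM for HARS2, and GTF2H4 49.8 TPM against 30.8 TPM for VARS2. The share of reads exchanged between such genes was not tested.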

How the data were processed

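The 12 RNA-seq libraries, made from total RNA, were assigned to 4 groups of 3 by the labels. The deposited table holds TPM, rounded to 2 decimals, and each library of the authors' table sums to between 999999 and 1000001. Bowtie2 2.4.1 and GRCh38 are named in the submitters' processing notes. The quantifier, annotation, strandedness and RNA selection are not given in the sources used here, and depth is unknown.

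For the 13937 genes averaging 1 TPM or more, limma 3.58.1 (R 4.3.3) was fitted to log2(TPM + 1) computed from the deposited values. The 4 group means shared 1 estimate of the spread (8 residual degrees of freedom, intensity trend, no replicate block), and p-values were two-sided and adjusted by Benjamini-Hochberg over all tested genes within each of 6 comparisons. A change on this scale understates that of low genes. The script was tested on simulated data. Alternatives were another pseudocount, other filters and scalings, fits of only the groups compared, no trend, a replicate block and leaving out each library. Coordinates of genes are from GENCODE 29 and promoter windows from RefSeq.

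Named genes are, per comparison and compartment, up to 4 called rises and 4 called falls, members with opposite responses or a called interaction, and GARS, KARS, HARS and HARS2. Up to 2 rises and falls of each related list and a few set genes were added. Values in each library are given for the leading genes of a comparison, and other genes under the rule by change or not at all. Counts, medians and sums cover all 37 genes, but 1 mitochondrial member is not reported here by name or drawn. The members and lists were chosen with earlier results of these data known.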

Additional observations from a re-analysis of the deposited data

Results flagged for a closer look

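The SAHA response of 17 members reported by name differed between cells with and without sonidegib, by limma's test of the interaction. Of all 13937 tested genes 31.4% were called in that test, 11.8% higher and 19.7% lower. Values are log2 differences, the response with sonidegib minus that without. The response was more positive with sonidegib for SARS2 (1.44), LARS2 (0.82), DARS (0.76), NARS2 (0.61), WARS2 (0.57), EARS2 (0.49), VARS (0.47), KARS (0.45), IARS (0.38) and FARSB (0.35). It was more negative for WARS (-0.58), SARS (-0.43), CARS2 (-0.37), YARS (-0.30), QARS (-0.24), AARS (-0.21) and GARS (-0.21). Of these, the calls of CARS2, YARS, QARS, AARS and GARS were lost after median-of-ratios scaling. The call of GARS, at an adjusted p of 0.0491, was lost in 10 of the 12 fits that left out 1 library, and that of AARS in 9 of 12. The call of EARS2 was lost without control replicate 2 (0.45), SAHA replicate 1 (0.46) or sonidegib replicate 3 (0.46). The call of WARS2 was lost without control replicate 1 (0.54), SAHA replicate 2 (0.49) or combination replicate 2 (0.53).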

How the results depend on the processing

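Over 222 results (37 genes in 6 comparisons) and 3515 values under alternatives, 3287 kept their side of the threshold, 153 lost the call, 69 gained it and 6 reversed. Among the 3287, 58 values of uncalled results changed sign. All 6 reversals came from quantile normalization: RARS with sonidegib (0.012), YARS with both drugs against control (0.12), and, in the combination against SAHA, KARS (0.20), GARS (0.18), YARS (0.22) and VARS (0.0051). The cause was not tested. Counts of called genes stayed within 1.5 times, except for the mitochondrial interaction, 11 after quantile normalization instead of 7, and the mitochondrial combination against sonidegib, 5 without sonidegib replicate 1 instead of 8 (5 to 7 over the fits without 1 library). Whether replicate numbers pair the libraries was not settled by these values. Over 18 same-numbered pairs deviations correlated only weakly, between -0.0586 and 0.111. Their mean was 0.012, beside -0.00603 for different numbers, and 8 of 12 libraries correlated best with their own number. With the replicate number as a block 214 of the results were the same, 5 gained and 3 lost the call. TPM hold no counts, so no counting error could be given. The SE was largest for CARS (0.35), followed by LARS2 and SARS2 (0.15 each).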
